A study of Mus musculus with 6 samples.

Results

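The regions described here lie on contigs of the mouse reference genome that have no fixed place on a chromosome. They were chosen by name alone: a region was a member where its sequence is named chrUn_ and a code, or ends in _random. By that rule, 284 of the 39096 regions in the list were members, and they lay on 25 contigs. Unlocalized contigs, named for a chromosome, held 271 of them on 16 contigs, and unplaced contigs, named chrUn, held 13 on 9 contigs.

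The list came from chromatin immunoprecipitation and sequencing (ChIP-seq) of PHF13, also called SPOC1, a chromatin protein whose PHD finger binds methylated histone H3. Tissue was testis from C57Bl/6 mice at 5 weeks of age, and the series has 3 SPOC1 ChIP and 3 input libraries. By their labels, 1 ChIP library was wild type and 2 were Phf13-/-, while 2 inputs were wild type and 1 was Phf13-/-. In animal D821 the input is labelled wild type and the ChIP is labelled Phf13-/-, so the genotype labels differ within that animal. The sources used here do not say which libraries entered the list or how Phf13 was deleted. There are 0 columns of values per library, so no level per animal, no replicate error and no test between groups could be computed, and library depths are unknown. The regions are therefore called regions and not PHF13 binding sites, and all differences below are descriptions of 1 list. Testis holds many cell types, and the list does not say which of them a region came from.

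Unlocalized contigs are pieces of sequence known to belong to a chromosome but not ordered on it, and unplaced contigs have no known chromosome. Such pieces are often rich in sequence that occurs in many copies, such as the major satellite of the heterochromatin beside the centromeres, the amplified families of the long arm of Y, and clusters of young gene families. Reads from such copies can fit several places in the genome, and the sources used here do not say how they were shared out.

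Genes of a family on placed chromosome 5 show how alike such copies can be. No contig sequence was compared. Many of the contig regions assigned to chromosome 5 had a nearest gene of the Pramel family, which encodes leucine-rich repeat proteins related to the tumour antigen PRAME and is expressed in the germ line and early embryo. RefSeq promoter sequences (build GRCm38.p6) were found for 5 of the 17 nearest genes of contig regions. The 250 bases before the start are shown for Pramel37, called BC061212 in the list (chr5:94070546-94070795, minus strand), and Pramel39, called A430089I19Rik (chr5:94306797-94307046, minus strand). Both are read 5′ to 3′ from the placed chromosome, and capitals mark the bases at which their alignment differs.
Pramel37: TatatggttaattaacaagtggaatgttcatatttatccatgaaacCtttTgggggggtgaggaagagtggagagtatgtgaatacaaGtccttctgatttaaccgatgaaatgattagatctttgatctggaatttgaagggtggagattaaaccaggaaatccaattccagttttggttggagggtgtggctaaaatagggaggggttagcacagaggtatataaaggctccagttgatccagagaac
Pramel39: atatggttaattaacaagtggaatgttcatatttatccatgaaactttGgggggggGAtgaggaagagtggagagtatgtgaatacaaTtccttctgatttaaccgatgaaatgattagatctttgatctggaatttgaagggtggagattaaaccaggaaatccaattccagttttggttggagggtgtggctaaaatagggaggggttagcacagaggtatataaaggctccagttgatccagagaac
The sequences matched at 246 bases and differed by 2 substitutions and 4 gap bases. The same stretch of Pramel50, called Gm7978 in the list (chr5:95736174-95736423, minus strand), was identical to that of Pramel37 over all 250 bases. All 3 promoters held TATAAA, the core of a TATA box, beginning 28 bases before the start, and 12.4% of the 32851 RefSeq promoters held it on either strand in a window of that length. The list placed 0 regions on these 3 stretches; they are shown for the likeness of the gene copies, and the regions near these genes are described below.

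The contig regions were few, and most scored low, with the highest score on satellite sequence. Of them, 77 were among the 50% of the list with the higher score and 13 among the highest 10%. How much of the genome the contigs make up was not worked out, so their number does not show depletion. They made up 0.726% of the list by number (Wilson 95% interval 0.647 to 0.816%, counting error only, as for all intervals here) and 0.697% of its covered length, or 392 kb. By the authors' score, a value per region whose unit is not stated, they made up 3.25% of the list's sum. Without the 1 region with the highest score, that share was 0.536%. The median score of contig regions was 10.8 (range 4.67 to 33547.1), against 17.8 in the whole list. Scores under 10 came in even steps of 0.212, and higher scores were not examined for steps. Were each step 1 tag, the lowest contig score would stand for 22 tags (exact 95% Poisson interval 13.8 to 33.3). Were the step also the same for higher scores, the median would stand for 51 (38.0 to 67.1).

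Because score grows with length, it was divided by length to give a score per kb. The median score per kb was 13.0 on contigs (95% interval of the median 12.3 to 13.7), 28.7 on the 19 autosomes, 22.6 on placed X and 12.7 on placed Y. Contig regions had a median length of 676 bp, and 38.4% of them were exactly 500 bp long, against 31.2% in the whole list. Most came from contigs of 2 chromosomes: Y contigs held 164 (57.7%, 51.9 to 63.4%) and chromosome 5 contigs held 79 (27.8%, 22.9 to 33.3%). The remaining 41 lay on contigs of chromosome 1 (16), 7 (6), 4 (3) and X (3) and on unplaced contigs (13). Those 41 had a median score per kb of 26.0.

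**Figure D1:**
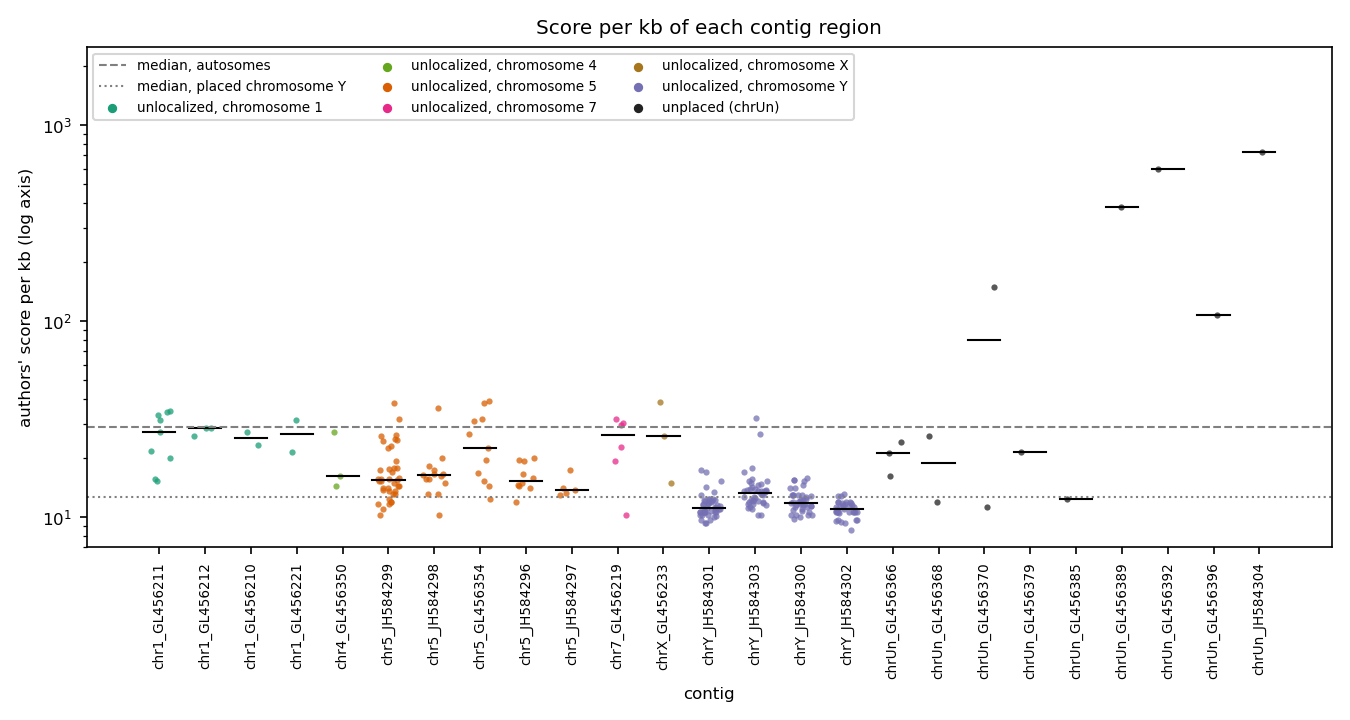
Score per kb (log axis) of every contig region by contig, with 1 point per region, a black line at each contig's median, and grey lines at the medians of the autosomes and of placed Y. Points of the Y contigs gather near the placed Y median, those of chromosome 1 and 7 contigs lie mostly near the autosomal median, and 4 unplaced contigs carry regions above 100 per kb that centre on the major satellite, with another region above 100 on GL456370.

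The highest values on contigs belonged to the major satellite, the tandem repeat that fills mouse pericentromeric heterochromatin and is named GSAT_MM in the list. It lay at the centre of 4 contig regions, all on unplaced contigs. The region with the highest score of the whole list, 33547.1, lay on chrUn_JH584304:68441-114438, was 45997 bp long and had a score per kb of 729, rank 3 of the list. It was intergenic, and its nearest gene was the pseudogene Pisd-ps3, with the centre 31.75 kb upstream of its start site. On chrUn_GL456392:21743-23569 the score was 1089.6 and the score per kb 597, rank 6 by both measures. On chrUn_GL456389:10492-10992 the score was 189.9 and the score per kb 380, and on chrUn_GL456396:11643-12426 they were 83.9 and 107. The score per kb thus ranged 6.81-fold among the 4 contig copies.

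On placed chromosomes, 7 regions were centred on the same satellite, and they covered nearly the same length and held nearly the same summed score as those on contigs. The contig regions covered 49.1 kb with a summed score of 34910.5, which was 2.84% of the list. The placed regions covered 49.7 kb with a summed score of 34683.2, or 2.83%. The score per kb ran from 107 to 729 on contigs (median 488) and from 138 to 782 on placed chromosomes (median 607), so the ranges overlapped. The longest placed one, at 3000149 to 3038544 on chromosome 9, scored 28376.9, or 739 per kb. In each place a single long region held most of the sum.

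Another contig region stood with the satellite by score per kb although no repeat was named at its centre. It ran from position 1 to 466 of chrUn_GL456370, was 465 bp long and had a score of 69.0, or 148 per kb (rank 19). It begins at the first base of its contig. The other region of that contig, 638 bp long and also without a repeat, had a score of 7.22, or 11.3 per kb. Of all 284 contig regions 5 had a score per kb above 50, the same 5 that were among the highest 1% of the list (390 regions). Of the 38812 placed regions 101 were above 50, a smaller share.

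Other satellites on contigs had none of this height. MurSAT1 lay at the centre of 6 regions, all on Y contigs, with scores per kb of 10.02 to 12.3, and IMPB_01 at 1, with 11.5. On placed Y, MurSAT1 lay at the centre of 137 regions with a median of 12.3, and it was at the centre of 0 regions on the autosomes and X. IMPB_01 had 13 autosomal regions of 9.97 to 63.8 per kb (median 14.9) and 26 on placed Y of 9.34 to 15.7. The 11 satellite regions on contigs therefore spanned 10.02 to 729 per kb, with a gap between 12.3 and 107. The gap followed both the repeat's name and the contig group, unplaced or Y, which cannot be told apart here.

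**Figure D2:**
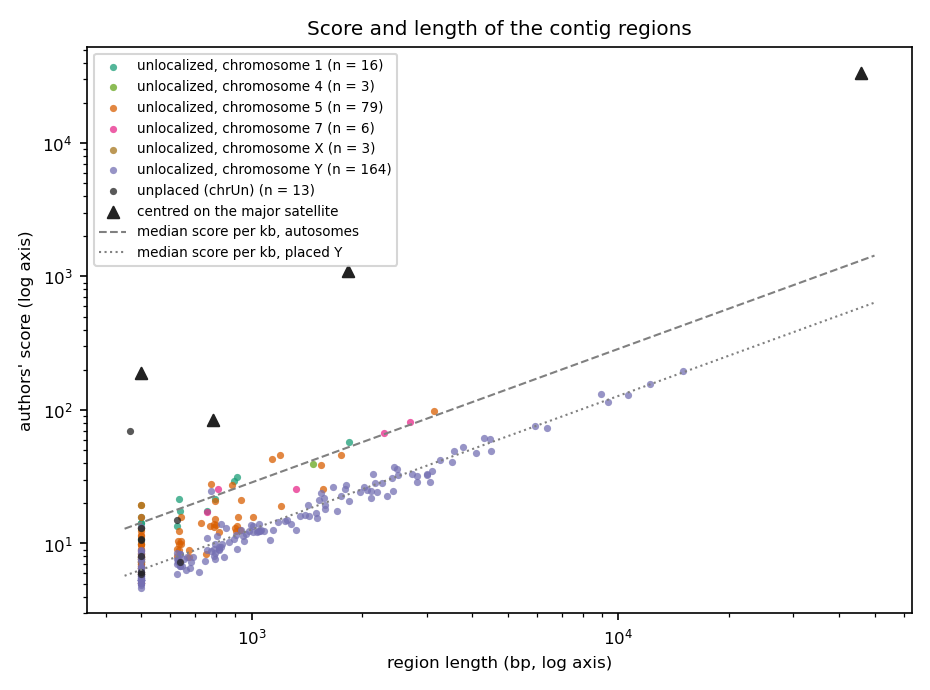
Authors' score against region length for the contig regions (both axes log), coloured by contig group, with triangles for the major satellite and lines for the median score per kb of the autosomes and of placed Y. Y contig regions follow the placed Y line up to a length of 15041 bp, while the 4 triangles lie above both lines.

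Regions on Y contigs had a low, even score per kb, slightly below that of placed Y. Y contigs had a median of 11.7 (quartiles 10.6 and 12.9, 95% interval of the median 11.5 to 11.9). Placed Y had 12.7 (quartiles 11.5 and 14.2), which lies above that interval. The long arm of mouse Y is built of amplified blocks with multicopy genes expressed in spermatids. The list gives no nearest gene for any of the 164 Y contig regions. Across Y contigs, 42.7% of the regions had no repeat at the centre (35.4 to 50.3%), 21.3% had a LINE and 21.3% an LTR element. On placed Y those shares were 46.1%, 24.3% and 18.8%, each inside the 95% interval of the contig share. Young L1Md elements, the recent LINE-1 families of mouse, were at the centre of 6.71% of Y contig regions and 8.92% of placed Y regions, against 70.3% on the autosomes.

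The 4 Y contigs fell into a densely and a sparsely covered pair. Regions covered 55.5% of the span between the outermost regions of JH584300 (40 regions, 100.2 kb) and 55.6% on JH584303 (42 regions, 87.1 kb). They covered 16.4% on JH584301 (46 regions, 40.4 kb) and 20.3% on JH584302 (36 regions, 31.3 kb). Placed Y, measured the same way, was covered to 33.2%, between the pairs. The number of regions was similar in all 4, and the difference lay in their length, with medians of 1561 and 1336 bp on the dense contigs and 636 and 702 bp on the sparse ones. Their median scores per kb were 11.9 and 13.3 on JH584300 and JH584303, and 11.1 and 11.0 on JH584301 and JH584302.

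The dense contigs also held the 5 Y contig regions that were among the 10 contig regions with the highest score. The longest was JH584300:64980-80021, which ran over 15041 bp without a repeat at its centre and scored 194.5, or 12.9 per kb. The next, JH584300:167844-180057, had an ORR1D1 LTR at its centre and scored 155.7, or 12.7 per kb. Both scores are high because the regions are long: their ranks were 130 and 568 by score but 28393 and 28929 by score per kb. The other members of this set were JH584303:145383-154352 (score 131.9), JH584303:39743-50396 (129.8) and JH584300:35573-44919 (114.0), all without a repeat at the centre and with 12.2 to 14.7 per kb.

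Repeats known from the Y chromosome were found on the Y contigs. YREP_Mm, CYRA11_Mm and the retroviral MURVY and IAPEY elements were together at the centre of 16 of 164 Y contig regions (9.76%) and of 964 placed Y regions (6.11%). They were at the centre of 0 regions on the other contigs, 5 on placed X and 14 on the autosomes. Their median score per kb was 11.5 on Y contigs, 12.7 on placed Y, 11.0 on placed X and 30.4 on the autosomes. The 5 on placed X were all YREP_Mm. Of the 14 on the autosomes, 0 were on YREP_Mm, CYRA11_Mm or MURVY-int and 1 was on IAPEy-int. The rest bore other names of these groups, so the medians do not compare the same elements. L1_Mus3 was at the centre of 11 Y contig regions (6.71%) with a median of 12.1, and of 6.58% of placed Y regions with a median of 13.0. L1Md_F3, at the centre of 6 Y contig regions, had a median of 11.2 there, 11.5 on placed Y and 24.1 on the autosomes. L1Md_T was the exception in spread: its 4 Y contig regions ran from 11.5 to 32.0 per kb (median 19.1), and its placed Y regions had a median of 18.1.

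**Figure D3:**
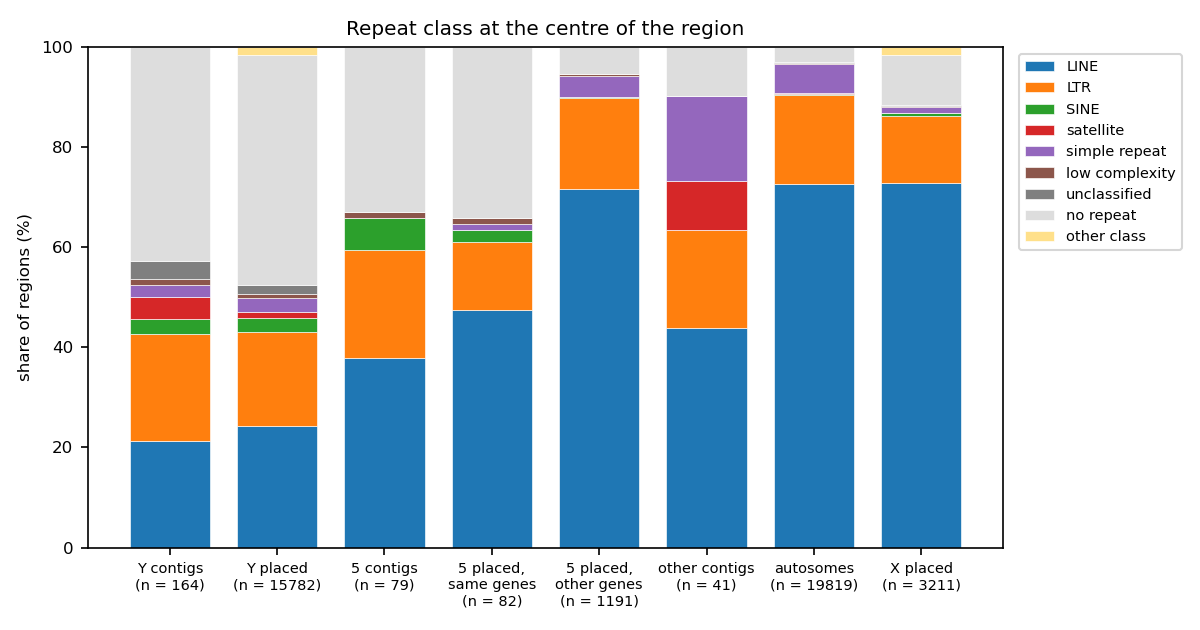
Share of regions (%) by the repeat class at the region's centre, for contig groups and the placed chromosomes named under each bar, with the number of regions in brackets. The bars of the Y contigs and placed Y are much alike, and chromosome 5 contigs resemble the placed chromosome 5 regions that share their nearest genes more than those with other nearest genes, where LINE elements make up 71.7%.

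Regions on chromosome 5 contigs differed from most of placed chromosome 5. In score per kb, median length and lack of a repeat they were much like the regions of 1 stretch of it. The contigs' 79 regions had 8 nearest genes, and 82 regions of placed chromosome 5 had one of the same genes; these lay between 93880012 and 95861462, a stretch of 1.98 Mb that held 95 regions in all. The median score per kb was 15.7 on the contigs (14.9 to 16.7), 16.4 in the placed regions with the same genes (15.3 to 17.5) and 28.4 in the other 1191 placed regions (27.6 to 28.9). Median length was 500 bp on the contigs and in the placed regions with the same genes, and 694 bp in the others. No repeat was named at 32.9% of the contig regions (23.6 to 43.9%), at 34.1% of the placed regions with the same genes and at 5.37% of the others.

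Shares of LINE and L1Md elements rose from the contigs to the placed regions with the same genes and then to the others, while LTR shares did not. LINE elements were at the centre of 38.0% of chromosome 5 contig regions (28.1 to 49.0%), 47.6% of placed regions with the same genes (37.1 to 58.2%) and 71.7% of the others. For L1Md elements the shares were 17.7% (10.9 to 27.6%), 30.5% (21.6 to 41.1%) and 69.4%. The share in placed regions with the same genes thus lay above the contig interval, though the intervals overlapped. LTR elements were at the centre of 21.5%, 13.4% and 18.1%. SINE elements, short retrotransposons copied by the LINE machinery, were at the centre of 5 of the 79 contig regions and of 2 of the 82 placed ones. Which genes to match was decided after the values were seen.

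Chromosome 5 contigs differed among themselves by their young elements. GL456354 held 11 regions, 7 of them centred on L1Md elements, and had a median of 22.5 per kb. Its region 134123-137258, centred on L1Md_Gf, had the highest score of the chromosome 5 contigs, 99.0, or 31.6 per kb. JH584299 held the most regions of this set, 39, with 6 on L1Md elements and 14 without a repeat, and a median of 15.5 per kb. JH584298 (14 regions), JH584296 (10) and JH584297 (5) had medians of 16.3, 15.4 and 13.8 per kb, with 0, 1 and 0 regions on L1Md elements. Covered length was 24.5 kb on JH584299, 11.4 kb on GL456354, 9.22 kb on JH584298, 6.52 kb on JH584296 and 3.76 kb on JH584297, which was 2.10 to 8.12% of each span.

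The genes nearest to these regions belong to a local cluster of copies. Gm16367, a predicted protein-coding gene, was nearest to 30 contig regions and 7 placed ones. Gm3139, which RefSeq calls Pramel42, was nearest to 15 and 9, and AU018829, called Gm16513 by RefSeq, to 13 and 9. Gm6367, a transcribed pseudogene, was nearest to 9 and 7, BC061212 (Pramel37) to 6 and 3, and Gm7978 (Pramel50) to 3 and 17. A430089I19Rik (Pramel39) was nearest to 2 contig regions and 19 placed ones, and Gm3286 to 1 and 11. The list gives the names BC061212 and Gm7978 to regions of 1 and the same start site, on GL456354 and on placed chromosome 5. The counts therefore do not tell Pramel37 from Pramel50. AU018829 and Gm16367 likewise shared start sites on JH584298, JH584299 and placed chromosome 5. At those sites AU018829 was given to upstream regions and Gm16367 to downstream ones, so their counts do not separate these genes either. In all, 4 of the nearest genes have a Pramel symbol in RefSeq, and they were nearest to 26 contig regions.

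Regions recurred at the same distance from the start sites of different copies. The signed distances in the list placed 9 start sites on the contigs and 10 on placed chromosome 5; 3 contig regions and 1 placed region matched none of these and were each counted as a start site of their own, 12 and 11 in all. A repeat name, or the lack of one, was called recurrent where it lay within 1000 bp of the same distance at another start site. Distances were joined in a chain, so a position can span more than 1000 bp. Of the 79 contig regions, 38 met the rule (34 with those single regions left out), and start sites of different genes could match. The lack of a name, found at 26 of the 79, could match too. The share among placed regions, and how many would match without shared copies, were not worked out. The commonest recurrent repeat was RMER3D-int, the internal part of an LTR retrotransposon, at 22.2 to 23.9 kb downstream of 9 start sites, 6 on contigs and 3 placed. Its scores there were 7.86 to 20.0, or 12.9 to 17.3 per kb. With the single regions left out, it lay at 23.4 to 23.9 kb from 7 start sites, 4 on contigs and 3 placed. The whole list had 5 autosomal regions centred on RMER3D-int, all of them on chromosome 5, with a median of 14.7 per kb, and 19 on X with a median of 11.1.

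A region without a repeat recurred at 8.73 to 8.98 kb downstream of 8 start sites, 6 on contigs and 2 placed. The start sites belonged to Gm16367 and Gm3139, the scores ran from 5.95 to 9.13, and the scores per kb from 11.9 to 14.6. Further positions shared by 3 start sites were an Lx5b LINE with centres at -44.2 to -43.7 kb, that is upstream, a MuRRS4-int LTR at 37.6 to 38.0 kb, where 2 of the 3 start sites rest on a single region, and another at 51.8 to 52.5 kb downstream, and an L1Md_A at 19.01 to 20.7 kb downstream. The L1Md_A position had the highest scores of these, 18.3 to 78.1, with 30.9 to 38.3 per kb. In all, 9 positions recurred at 3 or more start sites, 5 with a named repeat and 4 without; the latter include 3 more, at -75.9 to -75.2 kb, at -12.3 to -12.2 kb and at 88.3 to 88.4 kb. The list gives the contigs and the placed cluster the same gene names, so they may share sequence; these are not independent observations, and no test was made.

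**Figure D4:**
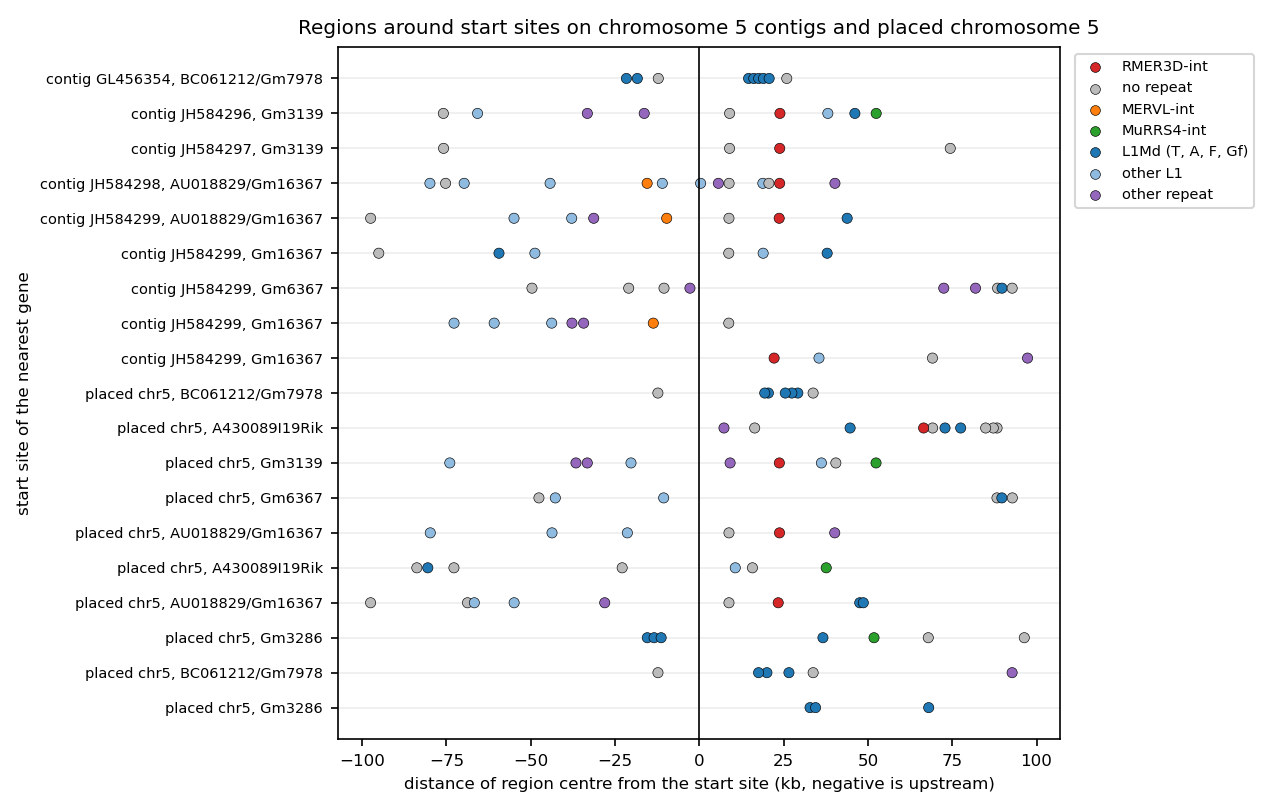
Distance (kb) of each region's centre from the start site of its nearest gene, for start sites with 3 or more regions within 100 kb on chromosome 5 contigs (upper rows) and placed chromosome 5 (lower rows), coloured by the repeat at the centre. Red points of RMER3D-int form a column at 23.4 to 23.9 kb, with another point at 22.2 kb on JH584299. Grey points without a repeat form a column at 8.73 to 8.98 kb. Both columns run through contig and placed rows.

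MERVL-int had scores per kb on contigs inside the autosomal range of 21.6 to 44.0, and the medians of L1Md_T and L1Md_A differed between contig groups. MERVL-int, the internal part of the endogenous retrovirus MERVL, which is active in early embryos, was at the centre of 5 contig regions. Its scores per kb were 26.0, 36.2 and 38.0 on chromosome 5 contigs, all outside the autosomal quartiles of 30.3 and 35.2 (median 32.8). On chromosome 1 contigs they were 33.1 and 34.3, inside those quartiles. L1Md_T was at the centre of 14 regions on contigs other than those of Y, with a median of 27.9 (15.3 to 38.6) against 29.5 on the autosomes. That median came mainly from 10 regions on contigs of neither Y nor 5 (28.9), and the 4 on chromosome 5 contigs had 21.5. L1Md_A, with 11 such regions, had 22.7 against 29.0; here the 6 on chromosome 5 contigs had 26.7 and the other 5 had 22.7. L1 elements outside the L1Md families had a median of 16.1 over 16 regions on chromosome 5 contigs, against 27.6 over 461 on the autosomes. On placed chromosome 5 it was 16.8 over 42 regions, and 15.1 over the 14 of them with the same nearest genes. Regions without a repeat had a median of 14.1 on chromosome 5 contigs, 13.2 on placed chromosome 5 and 13.5 on the autosomes.

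Of the 14 chromosome 5 contig regions on LTR elements other than MERVL-int, 6 were on RMER3D-int and 3 on MuRRS4-int. On placed chromosome 5 these were 5 and 3 of 180. Of the 11 placed ones with the same nearest genes, 4 and 3 were on these elements, a mix much like that of the contigs. The 14 had a median of 15.3 per kb, the 11 placed ones with the same nearest genes had 14.9, and all 180 had 29.4. RMER3D-int had medians of 15.8 on the contigs and 14.7 on placed chromosome 5, and MuRRS4-int had 17.3 and 14.9. MT2_Mm, the LTR that flanks MERVL, had scores per kb of 14.4 and 16.1 in its 2 contig regions, below the lowest autosomal value of 16.6 among 194 regions.

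**Figure D5:**
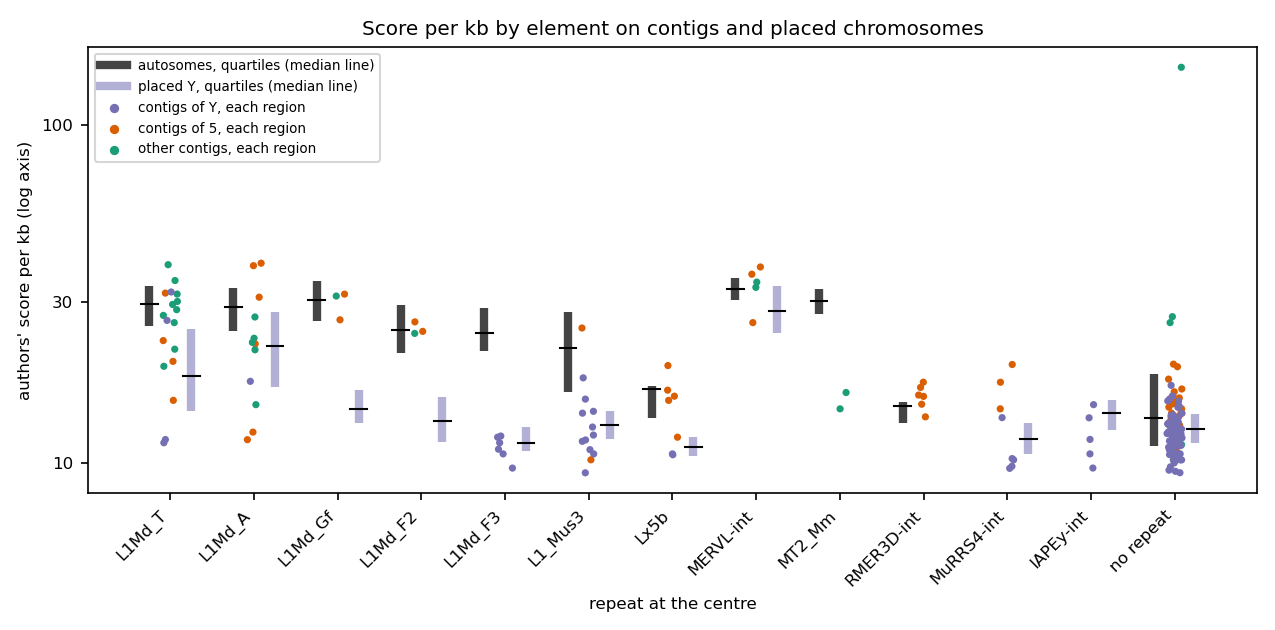
Score per kb (log axis) by the repeat at the centre: points are single contig regions, and bars give the quartiles on the autosomes and on placed Y with a black line at the median, drawn for 5 or more regions. Points of MERVL-int and most of those of L1Md_T on contigs of neither Y nor 5 lie near the autosomal bars, and both MT2_Mm points lie below theirs.

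The chromosome 7 contig GL456219 carried 6 regions beside vomeronasal receptor genes, which encode pheromone receptors of sensory neurons. Of the 6, 4 were centred on L1Md_T near Vmn1r186, 1 on L1Md_A near Vmn1r187 and 1 on a (TAGA)n repeat near Vmn1r62, and their median score per kb was 26.1, against 27.6 on placed chromosome 7. Around Vmn1r186 the longest contig region, 2706 bp, lay 42.9 kb downstream of the start and scored 81.3. Placed chromosome 7 held its like at 5717001 to 5719720, 2719 bp long, at a distance that differed by 150 bp, with a score of 106.4, or 39.1 per kb against 30.04 on the contig. A second pair at 46.5 kb differed by 14 bp in distance and scored 25.5 on the contig and 28.5 on placed chromosome 7, or 19.3 and 31.9 per kb. The other contig regions near Vmn1r186 scored 67.5 and 25.5, and the nearest placed L1Md_T region, which scored 15.3, lay 2386 and 1643 bp from their distances. Near Vmn1r187 the L1Md_A region scored 17.2 on the contig and 11.5 on placed chromosome 7, 22.7 and 23.0 per kb. The (TAGA)n region had the lowest score of this contig, 5.10.

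On chromosome 1 contigs the regions were few and like those of placed chromosome 1 in height. Their 16 regions had a median of 27.2 per kb (quartiles 21.7 and 31.2), against 28.8 on placed chromosome 1. GL456211 held 9 of them, with 3 on L1Md_T, 1 on L1Md_Gf (score 57.6, the highest of these contigs), 2 on MERVL-int and 3 on TAGA or TCTA simple repeats. GL456212 held 3, GL456210 held 2, both on L1Md_A, and GL456221 held 2. The list gives nearest genes only on GL456221, where both regions were assigned to Csprs, a component of Sp100-rs, at 45.4 kb downstream and 23.1 kb upstream. TAGA or TCTA repeats were at the centre of 5 of the 16 regions, and of 7 of the 41 regions on contigs other than Y and 5 (17.1%), against 2.40% on the autosomes.

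The X contig GL456233 had 3 regions, all 500 bp long, centred on L1Md elements and inside introns of Tmlhe, an enzyme of carnitine synthesis. Scores were 7.43 in intron 1, 19.3 in intron 3 and 13.0 in intron 5, or 14.9, 38.6 and 26.0 per kb. The list names the pseudogene Zf12 as the gene nearest to the latter pair. The chromosome 4 contig GL456350 also had 3. One covered the transcript end of a copy of 4933409K07Rik without a repeat (score 39.7, 27.1 per kb), and the others were the MT2_Mm regions near Gm13298, which RefSeq calls Fam205a2, with scores of 8.07 and 7.22. Gm13298 had an MT2_Mm region on placed chromosome 4 too, 2.66 kb upstream of a start site, which scored 17.0 over 765 bp.

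The unplaced contigs without satellite carried 9 regions. GL456366 had 3, of which 2 were on the retroviral MMERVK10C-int (16.1 and 21.2 per kb) and 1 on L1Md_F2 (24.2). GL456368 had an ETnERV3-int region at 11.9 and an RLTR13A2 region at 26.0 per kb. GL456379 had 1 on L1Md_A at 21.6 per kb, and GL456385 had 1 on (TAGA)n at 12.3. The median over all 13 unplaced regions was 24.2 per kb, and over the 271 unlocalized ones 12.9.

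A nearest gene was given for 94 regions on 10 contigs. The other 190 had no gene and no distance to a start site, and they were all the regions in the list without such a distance. The 94 had 17 nearest genes, of which 11 also had a placed region. By annotation, 81 of the 94 were intergenic, 12 intronic and 1 at a transcript end. The median distance to the start was 33.4 kb (quartiles 18.5 and 64.5 kb), against 109.8 kb on the autosomes. Of the 94, 79 lay on chromosome 5 contigs among the gene copies described above. A contig's length also limits the distance, so the medians are not directly comparable. Within 5 kb of a start site were 4 of the 94 regions (4.26%, 1.67 to 10.4%), all 500 bp long, against 2.17% of the autosomal regions, which lies inside that interval. The nearest, JH584298:82334-82834, lay 389 bp downstream in intron 1 of a copy of Gm16367, was centred on L1_Mur2 and scored 9.98. The others lay 2.43 kb upstream of Gm13298 (score 8.07), 2.78 kb upstream of Gm6367 on a B2_Mm1a SINE (8.49) and 3.13 kb downstream of Zf12 on L1Md_T (19.3).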

How the data were processed

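The data were 1 list of regions from testis ChIP-seq of PHF13, deposited for 3 ChIP and 3 input libraries. Per the submitters' processing notes, Bowtie2 2.2.2, SAMtools and HOMER 4.6 were used with build mm10. Per the file headers, HOMER's annotation program wrote the list. Not given in the sources used here are peak settings, the libraries pooled, the input used as control and the treatment of reads with several matches.

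The authors' deposited score per region has no stated unit and was used only within the list; score per kb is score divided by length (end minus start). Shares carry Wilson 95% intervals, and medians carry binomial order-statistic intervals; both were tested on simulated data and cover counting error only. No test was made, because regions are not replicates. Contigs with 5 or more regions, genes nearest to 3 or more contig regions, genes within 5 kb of a contig region, listed families, the 10 highest scores, the 5 highest scores per kb and all satellite regions were named; other contigs, genes and pairs were named after their values were seen. The members and lists were chosen with earlier results of these data known. Element groups, recurring distances, the genes matched on chromosome 5 and the promoter comparison were chosen after values were seen. All 17 nearest genes matched RefSeq by gene number, 6 under another symbol. A start site was placed by region centre and signed distance. Alternatives changed the score minimum, weighting, contigs and satellite regions included. The software was SciPy 1.17.1, NumPy 2.4.6 and pandas 2.3.3 under Python 3.11.15, with plots by matplotlib 3.10.9.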

Additional observations from a re-analysis of the deposited data

How the results depend on the processing

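No paired analysis was possible because the regions carry no value of single libraries, and for the same reason no replicate could be left out. Over the alternatives 25 values fell outside the 95% interval of the reported value and 17 inside it; for shares of length and score, an interval of the same width as that of the region share was set around the reported value. Among the 50% of all regions with the higher score, contigs held 0.394% of the regions, 0.576% of the length and 3.73% of the score, with 36.4% LINE, 13.0% LTR, a median of 14.0 per kb and 63.6% on Y contigs. Among the 10% with the highest score the contig share was 0.333%, LINE 23.1% and the median 14.7 per kb, over 13 contig regions. Without the contig with the most regions, JH584301, the share was 0.609%, the median 13.7 per kb and the Y share 49.6%. Without Y and its contigs, contigs held 0.518% of the regions and 0.512% of the length; without Y contigs, 40.0% were LINE, 25% had no repeat and the median was 17.1 per kb. Without the major satellite the share of length was 0.610% and of score 0.435%. Without the contig region with the highest score, an alternative chosen after seeing the data, they were 0.615% and 0.536%. Weighted by length, LINE made up 22.7% and satellite 13.8%, and summed score over summed length was 102 per kb. For these values the cause was not tested. Library depths are unknown, which limits what a low score can show.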
